A study of Homo sapiens with 4 samples.

Results

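The early response of leukaemia cells to menin inhibition was read from a single pair of libraries, MOLM13 cells kept for 12 h with MI-503 and MOLM13 cells kept for 12 h with DMSO, the solvent. MOLM13 is a human acute myeloid leukaemia line of the monocytic type with a fusion of MLL (KMT2A) and AF9 (MLLT3), and both groups share this line and the 12 h. The series also holds 1 library of MOLM13 with SD70 for 12 h and 1 with SD70 and MI-503 together for 12 h, and its design text asks how the pair of agents acts jointly. Neither the doses nor the number of cultures behind a library is given in the sources used here. Genes were chosen by annotation and level alone: protein-coding genes, matched between the libraries by Ensembl identifier, with a mean of at least 1 FPKM (reads per kilobase of the exons of a gene, relative to library size) over DMSO and MI-503. This gave 9709 of 19951 protein-coding genes, out of 58735 genes of all kinds. SYT3 lay just inside that minimum (0.751 FPKM in DMSO and 1.251 in MI-503), and LRRC34 just outside (0.955 and 1.04 FPKM).

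Menin is a scaffold protein that holds MLL, and fusions of MLL, on the promoters of their target genes. In leukaemias with an MLL fusion this keeps HOXA genes, their cofactor MEIS1 and other progenitor genes transcribed and the cells immature. MI-503 occupies the pocket of menin into which MLL binds, and compounds of this kind are known for lowering MEIS1 and for letting such cells mature over days.

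The DMSO library held 15550915 reads and the MI-503 library 15937390, with 22062 and 22655 genes above 0. Reads of protein-coding genes made up 97.1% and 96.9%, and mitochondrial ribosomal RNA 0.853% and 0.928%. Of the 8 markers of monocytic leukaemia, 7 were measured (CD33, SPI1, PTPRC, ITGB2, MPO, CSF3R and LYZ) and CD68 was near 0 (0.151 and 0.263 FPKM). Their summed level was 371 FPKM in DMSO, 579 in MI-503, 577 in SD70 and 661 in the combination. Erythroid markers summed to 0.0310 FPKM in DMSO and 0.0300 in MI-503, with HBA1, HBB, HBG1 and KLF1 among those at 0 in both. The sums in the same order were 1.06 and 1.17 for B cells, 2.64 and 2.47 for megakaryocytes, 5.48 and 5.45 for mast cells and eosinophils, and 0.117 and 0.312 for epithelial and stromal cells. T and NK markers summed to 14.8 and 31.0 FPKM, nearly all from NKG7 (14.3 and 29.6 FPKM), whereas CD2, CD3E and CD3G were at 0 in both. The part of these markers in the results was not tested. In such bulk libraries fewer cells of a type and less RNA per cell cannot be told apart. With 1 library per group there was no replicate check, and an effect of MI-503 and any other difference between these 2 cultures cannot be told apart.

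The response at 12 h was small. MI-503 and DMSO differed at least 2-fold, as a fold of FPKM with a pseudocount of 1, in 45 genes (0.463% of the 9709), of which 34 (0.35%) were higher with MI-503 and 11 (0.113%) were lower. At 1.5-fold the number was 265 (2.73%), with 212 (2.18%) higher, 48 of them under 1 FPKM in DMSO, and 53 (0.546%) lower, 5 of them under 1 FPKM in MI-503, so 178 of the higher and 42 of the lower genes lay between 1.5-fold and 2-fold. The median log2 fold over all 9709 genes was -0.04. Reads for each gene were recovered from the FPKM, and 5895 of the genes had at least 1000 reads over both libraries and are called well counted. Among these 88.1% lay no more than 25% above or 20% below DMSO, and the 95% counting interval of a ratio reached a median of 8.42% to either side. For 277 well-counted genes (4.7%) the whole interval lay outside these limits, with 166 (2.82%) higher and 111 (1.88%) lower. With both libraries scaled to the same FPKM total these became 151 higher and 148 lower. Most of these differences were under 2-fold, with 156 of the 166 at a ratio under 2 and 106 of the 111 at a ratio above 0.5. The intervals here and below cover counting error only, and compare these libraries, not the conditions.

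**Figure D1:**
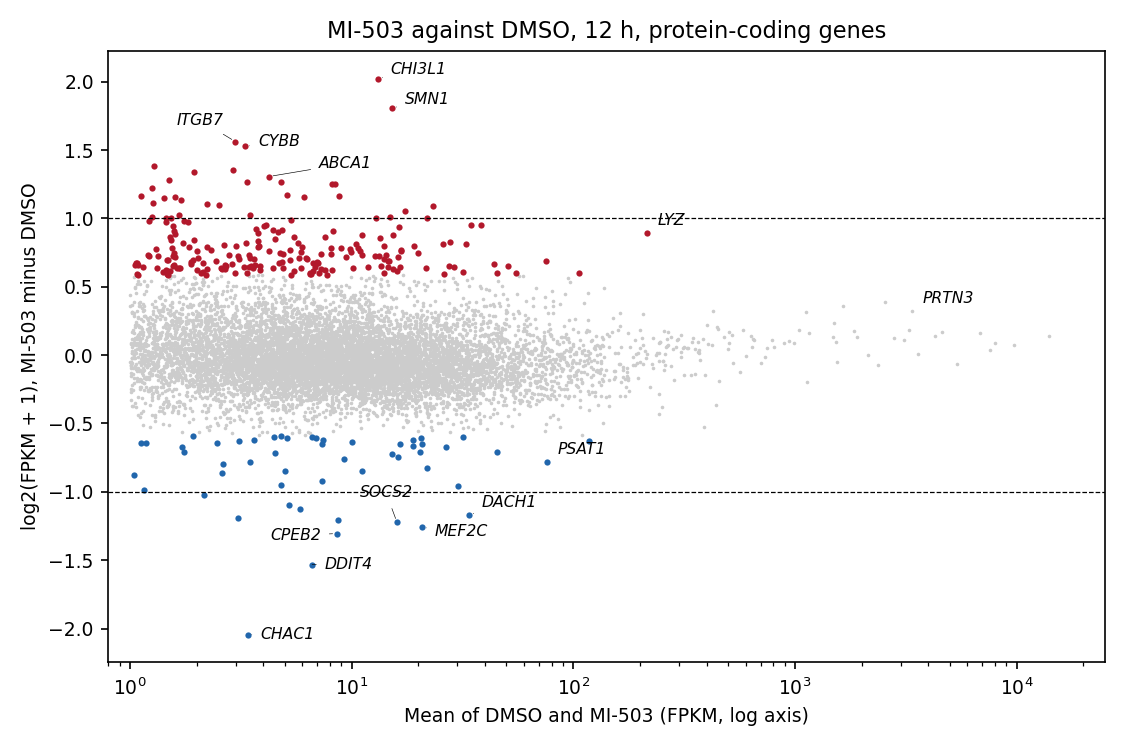
Log2 fold of MI-503 against DMSO on log2(FPKM + 1) for 9709 protein-coding genes (vertical axis) against their mean FPKM over both libraries (log axis), with 212 genes at least 1.5-fold higher in red, 53 at least 1.5-fold lower in blue and dashed lines at 2-fold. Most genes lie close to a log2 fold of -0.04, and CHAC1 (-2.04) and CHI3L1 (2.02) lie farthest from it.

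The 12 lowest and 12 highest folds among genes of at least 300 bases and 100 reads included stress and nutrient signalling genes, targets of the MLL fusion, and genes of mature myeloid cells. CHAC1, an enzyme that breaks down glutathione and a target of the transcription factor ATF4 (chromosome 15, 40952962 to 40956519 on the plus strand, GRCh38), had the lowest fold. CHAC1 stood at 6.08 FPKM in DMSO and 0.716 in MI-503 (189 and 23 reads), and at 2.54 in SD70 and 3.68 in the combination. The MI-503 library was thus the lowest of the 4, at 0.118 of DMSO (interval 0.0729 to 0.182). DDIT4 (chromosome 10, 72273920 to 72276036, plus strand), which restrains mTORC1 signalling under stress, was at 10.4 FPKM in DMSO, 2.93 in MI-503, 14.2 in SD70 and 15.8 in the combination, a ratio of 0.283 (0.222 to 0.357) for MI-503 against DMSO. Here too MI-503 alone stood apart below the other 3 libraries. EGR1, an immediate early transcription factor, was at 4.68 FPKM in DMSO and 1.49 in MI-503 (2.90 in SD70 and 4.22 in the combination). OCSTAMP, a membrane protein of osteoclast fusion, was at 12.6 and 4.89 FPKM (8.80 and 11.2). For these 4 genes the 2 libraries with SD70 lay above MI-503 alone.

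The other 8 genes at the low end had a different order, with both SD70 libraries below MI-503 alone in all but TMEM255A. They were CPEB2, MEF2C, SOCS2 and DACH1, taken up below with the menin targets, the neural adhesion molecule NCAM2 (8.38 FPKM in DMSO, 3.30 in MI-503, 2.14 in SD70 and 2.19 in the combination), the ephrin EFNA5 (7.49, 2.98, 1.29 and 1.49 in that order), the dynein chain DYNC1I1 (3.23, 1.08, 0.0991 and 0.0425) and TMEM255A (1.87, 0.448, 0.603 and 0.452). In TMEM255A the 3 treated libraries were close to each other. Levels with SD70 are set beside those with MI-503 as values only, since folds of both against DMSO share the DMSO library.

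At the high end CHI3L1, a chitinase-like glycoprotein secreted by macrophages and neutrophils (chromosome 1, 203178931 to 203186749, minus strand), was at 4.6 FPKM in DMSO and 21.8 in MI-503 (237 and 1158 reads), with 96.2 in SD70 and 93.0 in the combination. All 3 treated libraries were above DMSO, and MI-503 lay between DMSO and the libraries with SD70. The same order, with DMSO lowest and MI-503 between, held for ITGB7, the integrin beta 7 chain (1.02 FPKM in DMSO, 4.96 in MI-503, 15.2 in SD70 and 12.1 in the combination), CYBB (1.23, 5.42, 7.94 and 7.94), the zinc finger gene ZNF467 (0.266, 2.30, 9.62 and 7.28), ANXA1, an annexin that limits inflammation (1.2, 4.62, 9.69 and 8.62), and the Src-family kinase FGR (0.667, 3.21, 6.57 and 7.46). It held as well for PAQR8 (1.57, 5.19, 10.8 and 10.1), ITGAX (2.41, 7.19, 27.1 and 21.7), the myosin-binding protein MYBPH (4.40, 11.9, 29.7 and 28) and PRAM1, an adaptor of myeloid cells (4.56, 12.2, 20.5 and 20.5). For each of these 10 genes both SD70 libraries stood farther from DMSO than MI-503 alone did.

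ABCA1 and SMN1 were the exceptions among the 12. ABCA1, the pump that loads cholesterol onto apolipoprotein A-I and a target of the LXR receptors, was at 2.02 FPKM in DMSO, 6.46 in MI-503, 1.42 in SD70 and 1.17 in the combination. It was 3.20-fold higher with MI-503 than with DMSO (2.84 to 3.62), and MI-503 alone was the single high library. SMN1, which encodes a protein of snRNP assembly (chromosome 5, 70925030 to 70953942, plus strand), was at 6.22, 24.3, 4.15 and 8.87 FPKM in the same order, highest in MI-503 and second highest in the combination. SMN1 has a nearly identical copy, SMN2, whose reads went the other way (249 in DMSO and 169 in MI-503), so the split between them is uncertain. Summed over both copies the reads were 540 in DMSO, 1342 in MI-503, 335 in SD70 and 555 in the combination, so MI-503 was the high library for the sum too.

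**Figure D2:**
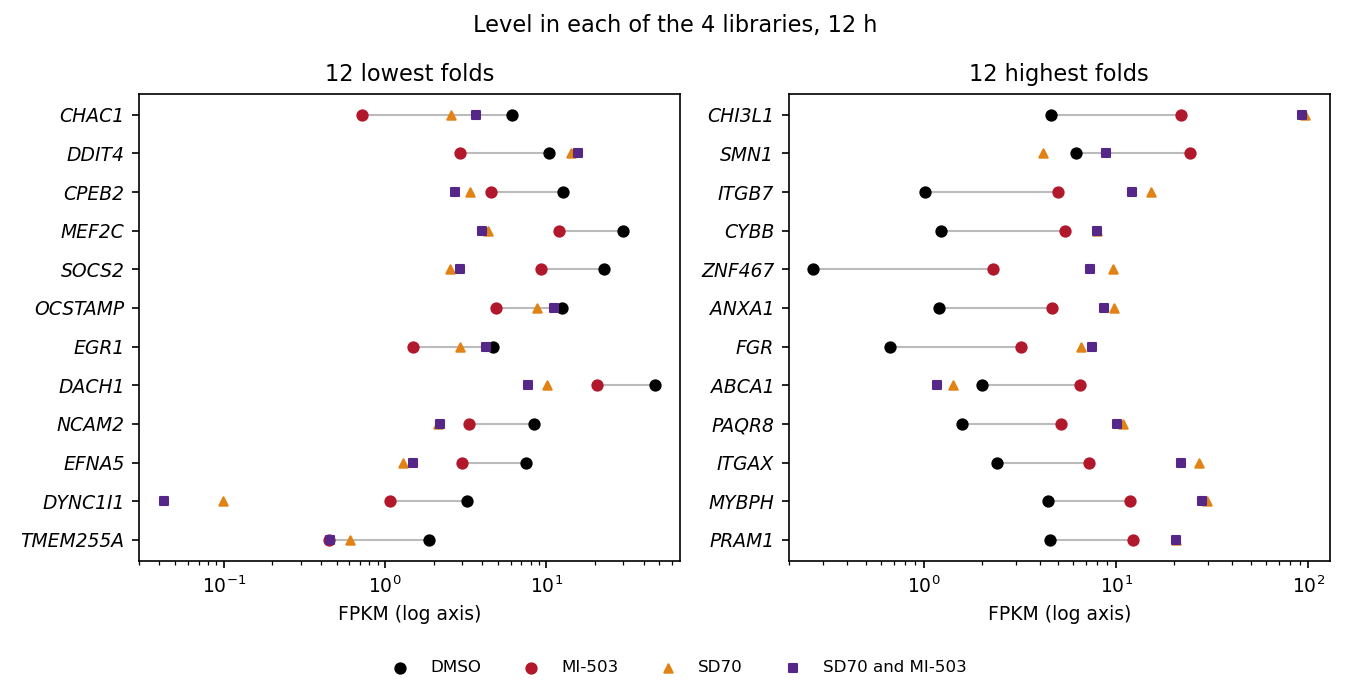
Level in FPKM (log axis) of the 12 genes with the lowest and the 12 with the highest log2 fold of MI-503 against DMSO, 1 point per library, with a grey line from DMSO to MI-503. DDIT4 is low in MI-503 alone (2.93 FPKM), ABCA1 is high in MI-503 alone (6.46 FPKM), and CHI3L1 stands highest in the SD70 library (96.2 FPKM) and the combination (93.0 FPKM).

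Promoters are printed for 4 of these genes because they lead the low and the high end, from RefSeq on GRCh38.p14, each 300 bases from 250 before to 50 after the start site, 5′ to 3′ on the strand of the gene. CHAC1 is chr15:40953221-40953520 on the plus strand and DDIT4 chr10:72273674-72273973 on the plus strand. CHI3L1 is chr1:203186655-203186954 on the minus strand and ITGB7 chr12:53207202-53207501 on the minus strand. Capitals mark a match, on either strand, to a motif named after the sequences.
CHAC1: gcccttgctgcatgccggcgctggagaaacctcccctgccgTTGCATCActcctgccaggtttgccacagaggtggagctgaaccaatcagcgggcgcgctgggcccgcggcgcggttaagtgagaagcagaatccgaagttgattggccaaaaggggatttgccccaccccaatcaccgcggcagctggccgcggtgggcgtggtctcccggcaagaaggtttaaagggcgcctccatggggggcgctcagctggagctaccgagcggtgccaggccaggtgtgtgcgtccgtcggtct
DDIT4: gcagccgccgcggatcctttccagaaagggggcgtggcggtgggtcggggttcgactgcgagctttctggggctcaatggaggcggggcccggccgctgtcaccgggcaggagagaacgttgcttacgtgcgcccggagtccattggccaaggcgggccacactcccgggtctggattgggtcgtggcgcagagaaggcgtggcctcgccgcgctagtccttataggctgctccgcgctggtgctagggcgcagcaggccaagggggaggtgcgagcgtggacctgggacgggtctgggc
CHI3L1: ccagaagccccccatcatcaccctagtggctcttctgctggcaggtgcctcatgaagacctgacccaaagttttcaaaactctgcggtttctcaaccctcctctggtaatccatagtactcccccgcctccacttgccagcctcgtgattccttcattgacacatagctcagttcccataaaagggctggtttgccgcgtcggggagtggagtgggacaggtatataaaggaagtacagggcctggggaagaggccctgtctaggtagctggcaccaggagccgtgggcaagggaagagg
ITGB7: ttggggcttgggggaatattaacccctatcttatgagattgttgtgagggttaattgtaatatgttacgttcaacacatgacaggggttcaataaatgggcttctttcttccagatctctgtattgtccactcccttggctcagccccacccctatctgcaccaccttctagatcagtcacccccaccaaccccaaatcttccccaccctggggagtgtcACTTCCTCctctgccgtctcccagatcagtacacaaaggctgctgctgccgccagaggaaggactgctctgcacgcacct

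Both strands of the promoters were searched for 7 motifs. These were TGATGNAAT (the amino acid response element), TGATGCAA (the core of the composite site of ATF4 and C/EBP, added after the data were seen, and contained in some matches of the former), GAGGAAGT (PU.1), TTGCNNAA (C/EBP), CACGTG (the E-box of MYC and MAX), TGATTNAT (HOX and PBX) and the MEF2 motif. The CHAC1 promoter held TGATGCAA 209 bases before the start site, a motif in 0.866% of the 35116 promoters of the table. The ITGB7 promoter held GAGGAAGT 30 bases before the start site, a motif in 2.59% of all promoters. Neither DDIT4 nor CHI3L1 held any of the 7. Entries existed for 10 of the 12 lowest genes, and 2 of them (CHAC1 and 1 of 7 promoters of MEF2C) held TGATGCAA. Of the 8 highest genes with an entry, 2 held GAGGAAGT and 0 held TGATGCAA, and 0 of the 10 lowest held GAGGAAGT. TTGCNNAA was held by 2 of the 10 lowest and 1 of the 8 highest, and CACGTG by 0 and 1. TGATGNAAT, TGATTNAT and the MEF2 motif were held by 0 in either group. These counts are per gene, and a gene can have several promoters, whereas the shares are per promoter. The shares of all promoters were 0.991% for TGATGNAAT, 10.5% for TTGCNNAA, 7.26% for CACGTG, 2.82% for TGATTNAT and 2.73% for the MEF2 motif. A match describes the letters only.

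Target genes of MLL fusions and menin were in part lower with MI-503. Of 46 listed genes 41 were measured, 9 of these were at least 1.5-fold lower with MI-503 and 2 were at least 1.5-fold higher, against 0.546% and 2.18% of all genes. Their median log2 fold was -0.25, against -0.04 over all genes. Of the 41, 34 lay below 0 and 32 below the median of all genes. Of the 33 that were well counted, 12 had an interval wholly over 20% below DMSO and 1 had one wholly over 25% above it, against 1.88% and 2.82% of all well-counted genes. The 5 left out for level (EYA1, IKZF2, ADGRG1, KIT and PROM1) were all under 0.1 FPKM in both libraries. In the combination against SD70 the 41 genes stood 19 above and 22 below, with a median of -0.01.

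MEF2C, a transcription factor of myeloid progenitors that MLL fusions activate (chromosome 5, 88717117 to 88904257, minus strand), was at 29.9 FPKM in DMSO, 11.9 in MI-503, 4.32 in SD70 and 4.0 in the combination. MI-503 held 0.398 of the DMSO level (0.378 to 0.418), and both SD70 libraries were lower still. SOCS2, an inhibitor of cytokine signalling that STAT5 induces, was at 22.9 FPKM in DMSO and 9.22 in MI-503, a ratio of 0.403 (0.374 to 0.435), with 2.54 in SD70 and 2.90 in the combination. SOCS2 overlaps the antisense gene SOCS2-AS1, which was at 3.73 and 1.43 FPKM, and as the strand setting of the counting is not given in the sources used here, reads of the pair cannot be told apart. CPEB2, a binder of cytoplasmic polyadenylation elements in mRNA, was at 12.6 FPKM in DMSO and 4.52 in MI-503, the lowest ratio of the list at 0.358 (0.322 to 0.396), with 3.37 in SD70 and 2.70 in the combination. DACH1, a cofactor of transcription, was at 47.4 FPKM in DMSO, 20.5 in MI-503, 10.015 in SD70 and 7.68 in the combination. These 4 genes shared the order of DMSO, then MI-503, then the 2 libraries with SD70.

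MEIS1, the homeodomain cofactor of HOXA9 (chromosome 2, 66433452 to 66573869, plus strand), was at 5.84 FPKM in DMSO, 3.16 in MI-503, 1.45 in SD70 and 1.01 in the combination, a ratio of 0.542 (0.487 to 0.602) for MI-503. Its partner PBX3 was at 25.5, 15.2, 10.6 and 7.79 FPKM in the same order, with a ratio of 0.596 (0.552 to 0.643). Both genes were lower with MI-503 than without it in each of the pairs that share no library, DMSO with MI-503 and SD70 with the combination. For MEIS1 the combination held 0.695 of the SD70 level (0.569 to 0.849), and for PBX3 it held 0.735 (0.657 to 0.822). The related PBX2 was at 17.7 FPKM in DMSO and 20.8 in MI-503, a ratio of 1.18 (1.09 to 1.27), so the PBX genes did not go one way.

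The HOXA genes were graded. HOXA9, a homeodomain gene characteristic of this leukaemia class, was at 25.1 FPKM in DMSO, 18.8 in MI-503, 17.8 in SD70 and 16.1 in the combination, and its ratio with MI-503 was 0.751 (0.687 to 0.820). HOXA4, which is not on the list, had the lowest ratio of the cluster at 0.415 (0.225 to 0.736, from 42 reads in DMSO and 18 in MI-503), below that of MEIS1. HOXA11 stood at 0.712 of DMSO (0.594 to 0.852), HOXA13, also off the list, at 0.729 (0.613 to 0.866) and HOXA5 at 0.769 (0.609 to 0.969). For HOXA6 (0.710, 0.492 to 1.02), HOXA3 (0.822, 0.645 to 1.05), HOXA7 (0.914, 0.611 to 1.37) and HOXA10 (1.11, 0.956 to 1.28) the interval took in a ratio of 1, so a difference was not detectable at this depth. HOXA7 rested on 54 reads in DMSO and 51 in MI-503. HOXA genes overlap antisense genes, and their reads cannot be told apart without strand.

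Other targets were graded. JMJD1C, a JmjC-domain protein, was at 28.3 FPKM in DMSO and 15.5 in MI-503 (ratio 0.548, 0.523 to 0.575), the SUMO protease SENP6 at 23.1 and 14.7 (0.636), and SATB1, an organiser of chromatin loops, at 38.5 and 25.1 (0.653). The splicing regulator MBNL1 (0.701), the G1 kinase CDK6 (0.712) and the receptor tyrosine kinase FLT3 (65.3 and 48.2 FPKM, 0.738) were lower by less than 1.5-fold, as were IGF2BP2 (0.778), the Polycomb subunit BMI1 (0.790), ZEB2 (0.807), SKIDA1 (0.815), the CDK inhibitor CDKN2C (0.824) and ADCY9 (0.825). Smaller ratios below 1 were found for TAPT1 (0.851), RUNX2 (0.859), MEF2D (0.894), MYC (0.938), IKZF1 (0.940), SKAP2 (0.947), BCL2 (0.947), MEF2A (0.968), MYB (0.970) and FUT4 (0.986). MYC and MYB, which drive proliferation of these cells, were at 181 and 101 FPKM in DMSO and at 169 and 98.2 in MI-503. RUNX1 (1.01), GFI1 (1.11) and LMO2 (1.12) lay a little above 1. ZFP36L2, a protein that promotes decay of AU-rich mRNA (84.5 and 129 FPKM, ratio 1.52), and CCNA1, the germ cell cyclin also expressed in myeloid leukaemia (7.58 and 13.8 FPKM, ratio 1.82, 1.57 to 2.11), were the 2 higher members. Both were higher again in SD70 (181 and 23.7 FPKM).

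**Figure D3:**
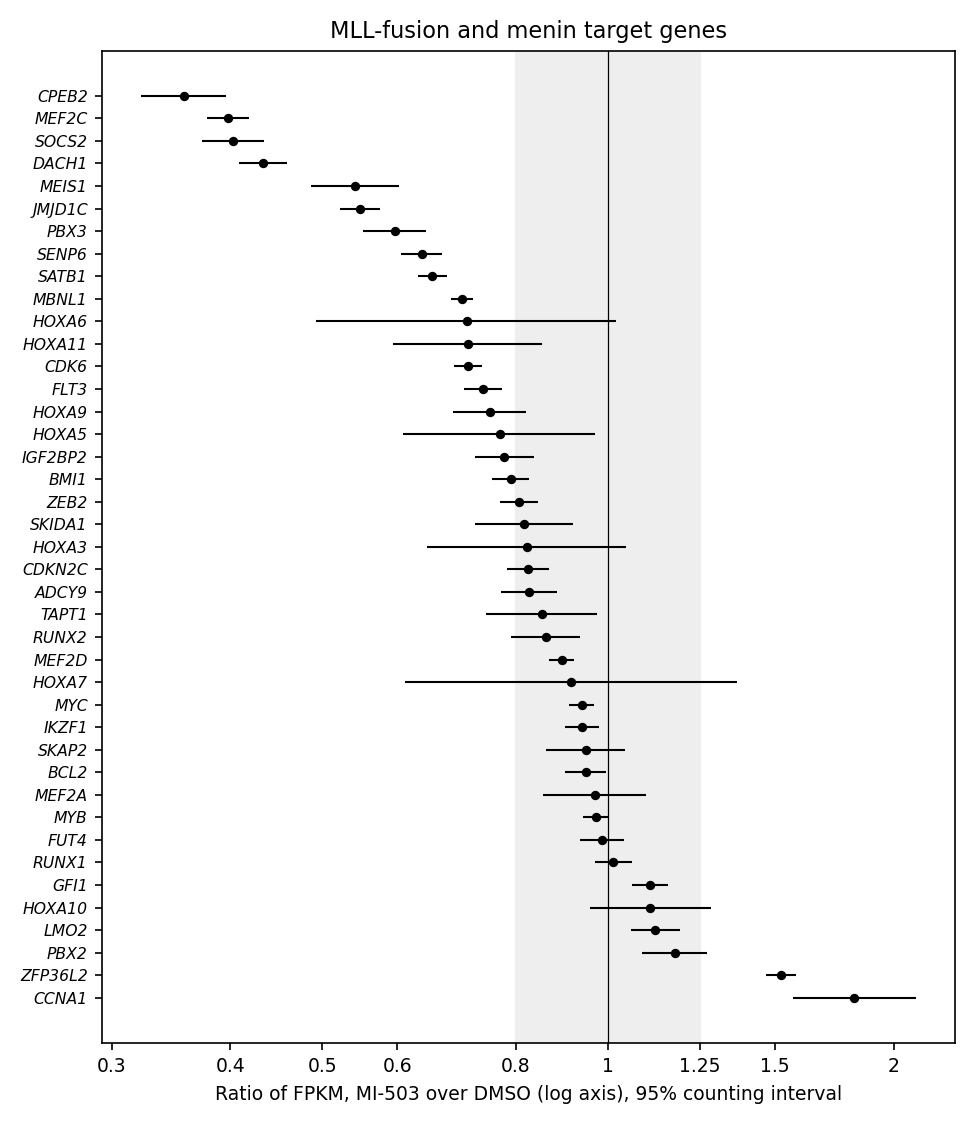
Ratio of FPKM in MI-503 over DMSO (log axis) for the 41 measured targets of MLL fusions and menin, with lines for the 95% counting interval and a grey band from 20% below to 25% above DMSO. CPEB2 has the lowest ratio (0.358) and CCNA1 the highest (1.82), and MYC (0.938) and RUNX1 (1.01) lie within the band.

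The genes of menin, MLL and their partners, and of other complexes on the list, stayed under 1.5-fold. MEN1, the gene of menin, was at 20.3 FPKM in DMSO and 22.6 in MI-503, a ratio of 1.11 (1.03 to 1.2). KMT2A was at 2.03 and 1.87 FPKM (0.924, 0.843 to 1.01) and MLLT3 at 1.28 and 1.27 (0.993, 0.792 to 1.24), and both values can hold reads of the fusion. The list of 22 genes, all measured, also takes in the demethylases KDM4A, KDM4B and KDM4C, which are not part of the menin and MLL complex. Of the 22, 0 were 1.5-fold higher and 0 were 1.5-fold lower, near the 2.18% and 0.546% of all genes. The median log2 fold was -0.04, equal to that of all genes. The lowest was MLLT10, a partner of DOT1L (13.7 and 9.91 FPKM, 0.723, 0.667 to 0.783), and DOT1L, the H3K79 methyltransferase, was at 30.0 and 24.9 FPKM (0.830). The highest was the histone demethylase KDM4B (5.05 and 6.49 FPKM, 1.28, 1.19 to 1.39). In between lay AFF4 (0.880), AFF1 (0.888), WDR5 (0.889), ASH2L (0.908), HCFC1 (0.916), CCNT1 (0.916), RBBP5 (0.924), PSIP1 (0.947), CDK9 (0.987), KMT2B (1.02), KDM4C (1.03), DPY30 (1.03), JUND (1.03), KDM4A (1.05), ELL (1.06) and MLLT1 (1.07).

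Part of the genes of mature myeloid cells were higher with MI-503. Of 54 listed monocyte and macrophage genes 33 were measured, and 13 were at least 1.5-fold higher and 0 lower, against 2.18% and 0.546% of all genes. Of the 13, 3 were under 1 FPKM in DMSO and passed the minimum level through MI-503. The median log2 fold was 0.45, and the 33 measured ran down to ratios of 1.01 for the chemokine receptor CCR1 (0.824 to 1.23) and 1.15 for FCER1G (0.560 to 2.39), whose intervals took in 1. CSF1R, the receptor for the macrophage growth factor M-CSF, was at 3.39 FPKM in DMSO and 8.77 in MI-503 (ratio 2.59, 2.24 to 2.99), MNDA, a nuclear antigen of myeloid cells, at 5.05 and 12.6 (2.49, 2.07 to 3.01), and the fractalkine receptor CX3CR1 at 0.688 and 2.70 (3.92, 2.74 to 5.75). CX3CR1 rested on 38 and 154 reads. LYZ, lysozyme (chromosome 12, 69348341 to 69354234, plus strand), was at 151 FPKM in DMSO, 281 in MI-503, 237 in SD70 and 329 in the combination, a ratio of 1.86 (1.79 to 1.93). Both libraries with MI-503 were above their partner without it for LYZ, but over the list 9 of the 33 genes lay above SD70 in the combination and 24 below, with a median of -0.08, where 54.5% of all genes lay above. The inhibitory receptor LILRB4 was at 7.30 and 13.5 FPKM (1.86, 1.69 to 2.04). A filter on the mean lets in low genes that are high in MI-503, and 21 of the 54 did not pass it, among them LILRB3 (0.319 and 0.189 FPKM), CD14 (0.105 and 0.102), VCAN (0.0402 and 0.0432) and CD163 (0 in both). Others of the 21 held more reads in MI-503 than in DMSO, among them MPEG1 (86 against 24), FCGR2B (40 against 8) and SIGLEC9 (38 against 8).

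For phagocyte machinery the counts are again set against 2.18% of all genes higher and 0.546% lower at 1.5-fold. The phagocyte NADPH oxidase had 3 of 7 members higher, 1 of them under 1 FPKM in DMSO, and 0 lower (median log2 fold 0.37). CYBB, its catalytic subunit (chromosome X, 37780011 to 37813461, plus strand), stood at 82 reads in DMSO and 374 in MI-503, 4.42-fold higher (3.47 to 5.68), NCF1 was at 8.09 and 14.1 FPKM (1.74) and NCF4 at 37.7 and 49.0 (1.30). NCF1 shares reads with its copies NCF1B and NCF1C, and the 3 summed to 725 reads in DMSO and 1481 in MI-503. Among the leukocyte integrins 4 of 11 measured were higher and 0 lower (median 0.32), namely ITGB7 (ratio 4.87), ITGAX, the CD11c chain (2.98), ITGAM, the CD11b chain (2.43 and 5.62 FPKM, 2.31), and their common partner ITGB2 (43.7 and 66.9 FPKM, 1.53, 1.47 to 1.59). Of the 12 measured S100 and annexin genes 3 were higher and 0 lower (median 0.30), and these were ANXA1 (3.84), S100A6 (21.1 and 33.8 FPKM, 1.6) and S100A9, which rested on 4 and 23 reads (0.459 and 2.55 FPKM) and passed the minimum level only through MI-503. ANXA6 was at 2.01 and 2.95 FPKM (1.47).

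Granule genes are transcribed in immature granulocytes and monocytes. Of 17 measured 4 were at least 1.5-fold higher and 0 lower, against 2.18% and 0.546% of all genes, and the median log2 fold was 0.32. MPO, myeloperoxidase, was at 10.3 FPKM in DMSO, 16.8 in MI-503, 6.64 in SD70 and 10.5 in the combination, MS4A3 at 18.4, 33.1, 16.8 and 23.2, and the protease CTSG at 35.8, 54.8, 41.3 and 57.3. Each of the 3 was higher with MI-503 both without and with SD70, by a ratio of 1.63 (1.46 to 1.81) and 1.59 (1.39 to 1.82) for MPO, of 1.79 (1.62 to 1.99) and 1.38 (1.23 to 1.54) for MS4A3, and of 1.53 (1.39 to 1.68) and 1.39 (1.27 to 1.51) for CTSG. The fourth, SERPINB10, rested on 26 reads in DMSO and 96 in MI-503 (0.637 and 2.28 FPKM, ratio 3.57, 2.30 to 5.75) and passed the minimum level only through MI-503. In the combination against SD70 14 of the 17 were above and 3 below, with a median of 0.20, against 54.5% of all genes above.

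Of 14 measured transcription factors of the myeloid lineage 2 were at least 1.5-fold higher and 1 lower, against 2.18% and 0.546% of all genes, with a median log2 fold of 0.28. NFE2 was at 8.23 FPKM in DMSO and 17.5 in MI-503 (ratio 2.13, 1.85 to 2.44), and CEBPE, a factor of granulocyte maturation, at 1.36 and 3.09 (2.27, 1.48 to 3.55, from 32 and 75 reads). CEBPD was at 39.4 and 56.3 FPKM (1.43, 1.33 to 1.54). The lower one was EGR1 (0.318, 0.241 to 0.416). EGR1 was also the 1 member at least 1.5-fold lower among 11 measured ERK feedback genes (median -0.12) and among 15 measured immediate early genes (median -0.01), where 0 were higher.

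Antigen presentation genes had 3 of 13 measured at least 1.5-fold higher, 0 lower and all 13 above 0 (median 0.37), where 2.18% of all genes were higher and 0.546% lower. Among the higher ones, the immunoproteasome subunit PSMB9 was at 2.89 and 5.59 FPKM, NLRC5, which activates class I genes, at 5.10 and 8.33; HLA-E was at 76.4 and 114 (1.49). HLA genes resemble each other, so the split of reads between them is uncertain. The class II genes HLA-DRB1, HLA-DPB1 and HLA-DQA1 were at 0 in both. Surface antigens studied in leukaemia had 3 of 14 higher and 0 lower (median 0.40): CD244 (3.24 and 7.42 FPKM), LILRB4 and CD52, which rested on 14 and 31 reads and was under 1 FPKM in DMSO; CD38 was at 3.77 and 6.07 (1.61, 1.42 to 1.83). Lysosome and autophagy genes had 1 of 30 higher and 0 lower, a share near that of all genes, with a median of 0.18 against DMSO. In the combination 27 of the 30 lay below SD70 (median -0.20), against 45.5% of all genes. The 1 higher than DMSO was the lysosomal glucosidase GAA (12.5 and 19.6 FPKM), followed by the protease CTSD (18.4 and 27.2) and progranulin, GRN (78.6 and 114).

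**Figure D4:**
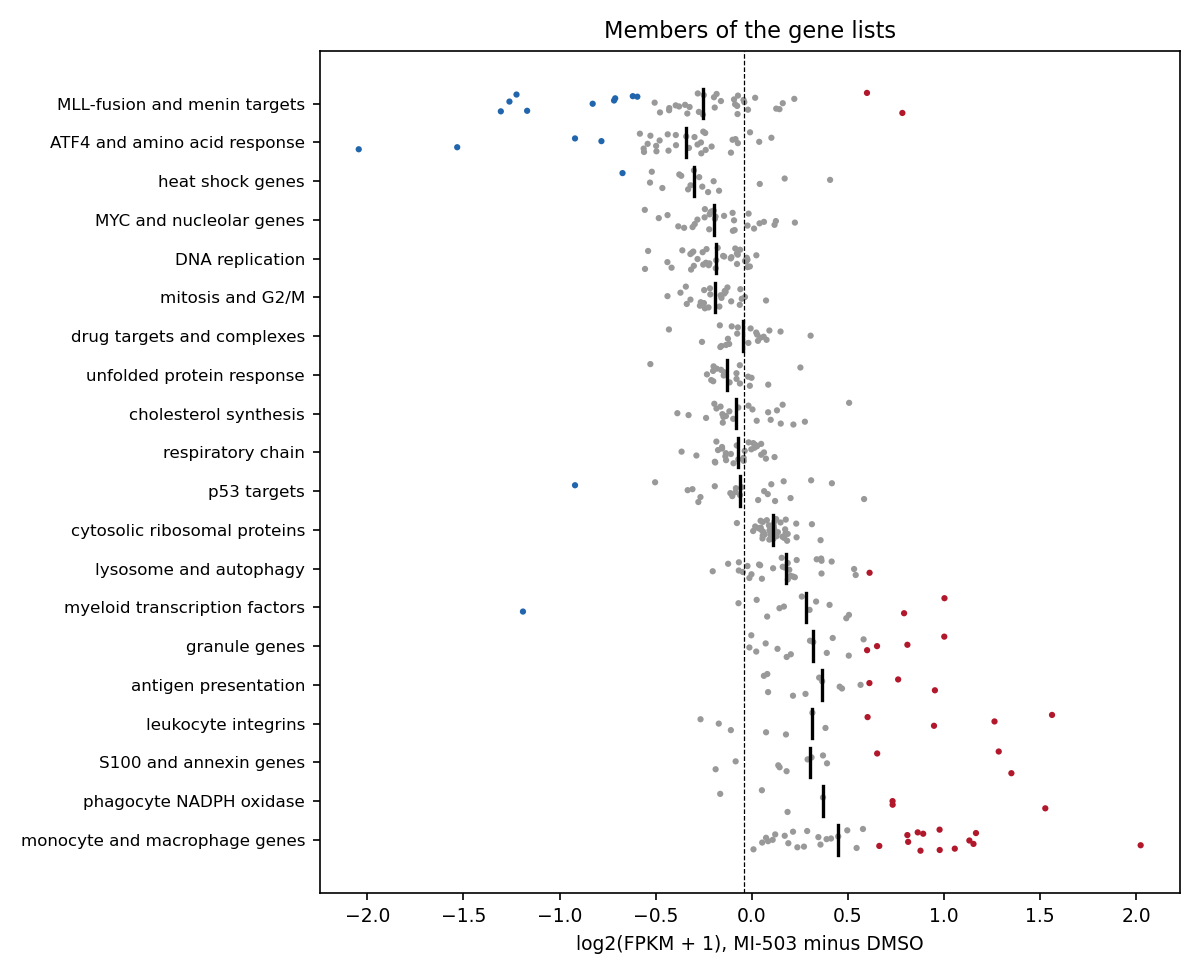
Log2 fold of MI-503 against DMSO on log2(FPKM + 1) for every measured member of 20 gene lists, 1 point per gene, with a black bar at the median of the list and a dashed line at the median of all genes (-0.04). Genes at least 1.5-fold higher are red and at least 1.5-fold lower blue, and the medians run from -0.34 for the ATF4 list to 0.45 for monocyte and macrophage genes.

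Targets of ATF4 and the amino acid response were in part lower with MI-503. Of 38 listed 33 were measured, and 4 were at least 1.5-fold lower and 0 higher, against 0.546% and 2.18% of all genes. The median log2 fold was -0.34, with 31 below 0 and 30 below the median of all genes. The 4 were CHAC1, DDIT4, SESN2, which restrains mTORC1 when leucine is short (9.91 FPKM in DMSO and 4.77 in MI-503, ratio 0.481, 0.413 to 0.560), and PSAT1. Of these CHAC1 was under 1 FPKM in MI-503 and passed the minimum level through DMSO. PSAT1, an aminotransferase of serine synthesis (chromosome 9, 78297143 to 78330093, plus strand), was at 96.6 FPKM in DMSO, 55.8 in MI-503, 45.6 in SD70 and 68.2 in the combination, a ratio of 0.577 (0.545 to 0.611) for MI-503 against DMSO. Of the 24 well-counted members 8 had an interval wholly over 20% below DMSO and 0 had one wholly over 25% above it, against 1.88% and 2.82% of all well-counted genes. In the combination against SD70 the same 33 genes stood on the other side, with 30 above and 3 below and a median of 0.25, against 54.5% of all genes above, so the lower level with MI-503 was seen against DMSO and not against SD70. ATF3, ASNS and STC2 of the list lay under the minimum level, at 1.36 and 0.444, 0.936 and 0.345, and 0.810 and 0.125 FPKM.

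Heat shock genes had 1 of 17 at least 1.5-fold lower and 0 higher, against 0.546% and 2.18% of all genes, with 14 below 0 and a median of -0.30. HSPE1, a mitochondrial co-chaperonin, was at 33.1 FPKM in DMSO and 20.4 in MI-503 (ratio 0.616, 0.557 to 0.682), HSP90AA1 at 459 and 318 (0.692, 0.681 to 0.703), HSPH1 at 62.8 and 43.5 (0.693) and DNAJA1 at 99.3 and 71.6 (0.722). In the combination against SD70 14 of the 17 were above, against 54.5% of all genes. The unfolded protein response, whose factor XBP1 was at 103 and 71.5 FPKM (0.691), had 0 of 20 past 1.5-fold and a median of -0.13.

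Of the growth and cell cycle genes 0 passed 1.5-fold on log2(FPKM + 1) in either direction, where 2.73% of all genes did. The 3 main lists had medians below the -0.04 of all genes. Below that median of all genes lay 22 of 30 MYC and nucleolar genes, 29 of 36 replication genes and 24 of 26 mitosis genes. MYC-regulated and nucleolar genes had a median of -0.19 over 30 measured, with 24 below 0, from a ratio of 1.22 for MXD3, a MAX partner that opposes MYC, down to TFRC, the transferrin receptor (88.8 and 60.1 FPKM, ratio 0.676), NOP16 (0.705), ODC1, the first enzyme of polyamine synthesis (0.735), and LYAR (0.760). DNA replication genes had a median of -0.19 over 36, with 35 below 0, led by cyclin E2 (CCNE2, 10.04 and 6.51 FPKM, 0.649), the reductase subunit RRM2 (41.9 and 28.5, 0.681), MCM10 (0.723) and CDC6 (0.733). Mitosis genes had a median of -0.19 over 26, with 25 below 0, led by HMMR (0.729), MAD2L1 (0.764), UBE2C (0.785) and CCNA2 (0.788). With SD70 present the 3 lists parted, where 54.5% of all genes were above SD70 in the combination and 45.5% below. Above it were 27 of 30 MYC and nucleolar genes and 28 of 36 replication genes (medians 0.28 and 0.12). Below it were 24 of 26 mitosis genes (median -0.13). CDK inhibitors and G1 cyclins had a median of -0.17, and CDKN1A, the p21 inhibitor, was at 58.6 and 48.5 FPKM (0.828).

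Ribosomal proteins and elongation factors lay slightly above, with 38 of 39 above 0 and a median of 0.11. At 1.5-fold 0 of the 39 passed, where 2.73% of all genes did. EEF2, elongation factor 2, was at 1450.5 FPKM in DMSO and 1859 in MI-503 (ratio 1.28, 1.27 to 1.29), and the ferritin light chain FTL at 2201 and 2885 (1.31, 1.29 to 1.33). They were the 2 among the 20 most abundant genes more than 25% above or 20% below DMSO. The next counts too stand against 2.18% of all genes higher and 0.546% lower. LXR targets had 2 of 6 measured higher and 0 lower (median 0.16), ABCA1 and APOC1 (1.94 and 4.11 FPKM, from 36 and 79 reads), whereas MYLIP (1.11) and SREBF1 (1.13) were close to DMSO. Replication-dependent and variant histone genes had 3 of 12 higher and 0 lower with a median of -0.03. Of the 3, 1 was under 1 FPKM in DMSO and passed the minimum level only through MI-503. They were H2AC6 (2.78 and 7.49 FPKM), H2BC5 (10 and 35 reads) and H1-2 (48 and 80 reads). Pro-apoptotic genes had 1 of 13 higher, BMF (3.07 and 6.68 FPKM, 2.17, 1.87 to 2.53), and anti-apoptotic genes 0 of 8 past 1.5-fold, with MCL1 at 73.5 and 60.0 FPKM (0.817).

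The other lists had medians between -0.10 and 0.14, against -0.04 over all genes. They were -0.08 for cholesterol synthesis, -0.07 for the respiratory chain, -0.06 for p53 targets, 0.01 for NRF2 targets, 0.00 for fatty acid synthesis, 0.03 for NF-kB and inflammatory genes, 0.14 for interferon-stimulated genes (15 of 16 above the median of all genes), -0.03 for Polycomb and chromatin repressors, -0.06 for glycolysis and hypoxia, 0.02 for stem and progenitor genes, -0.10 for the FLT3 to STAT5 list and -0.05 for housekeeping genes. Of these lists the FLT3 to STAT5 list had the most genes at least 1.5-fold lower, 2 of 15 measured, against 0.546% of all genes. They were SOCS2, also on the menin target list, and the cytokine OSM (2.41 and 1.09 FPKM). The p53 targets had 1 of 23 lower, and glycolysis and hypoxia had 1 of 28 lower and 1 higher.

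Among well-counted genes with a fold under 2, the 10 lowest ratios ran from 0.503 to 0.597. CNOT6L, a deadenylase that shortens mRNA tails, was at 40.4 FPKM in DMSO, 20.3 in MI-503, 11.1 in SD70 and 10.3 in the combination (ratio 0.503, 0.481 to 0.526). It was lower in all 3 treated libraries. Next came the potassium channel KCNN2 (14.6 and 7.67 FPKM), MEIS1, JMJD1C, POLR3G, a subunit of RNA polymerase III (11.9 and 6.62), PSAT1, PARP8 (20.5 and 11.9), the homeobox gene SHOX2 (19.2 and 11.2), PBX3 and ZNG1A (3.35 and 2.0), which has close copies that could share its reads. The 10 highest ratios ran from 1.85 to 2.50, a ratio above 2 being possible where the pseudocount keeps the fold under 2. SORL1, a sorting receptor, was at 1.11 and 2.77 FPKM (2.50, 2.2 to 2.85), and the others included METTL7A (5.43 and 11.1), SYTL1 (10.9 and 21.9), SPNS3 (25.9 and 51.0), the endolysosomal channel TPCN1 (7.56 and 14.8), TUBA1A (9.25 and 17.5), LYZ, LILRB4 and the receptor tyrosine kinase RET (5.66 and 10.5, ratio 1.85, 1.68 to 2.05). RET was at 7.80 FPKM in SD70 and 11.02 in the combination.

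A second pair of libraries that shares none with the first, the combination against SD70, shows the same agent on another background. It differed at least 1.5-fold in 50 of the 9709 genes (0.515%), of which 38 (0.391%) were higher and 12 (0.124%) lower, and at least 2-fold in 2 (0.0206%), SCT and H2AC20, both with few reads. Of the 212 genes at least 1.5-fold higher with MI-503 alone, 69 (32.5%) were higher in the combination than in SD70, against 54.5% of all genes. With equal FPKM totals these shares were 26.6% and 42.3%, and with equal read totals 27.9% and 45.1%. Of the 53 at least 1.5-fold lower, 21 (39.6%) were lower in the combination, against 45.5% of all genes. Across 9709 genes Pearson's r between both log2 folds was -0.2, given as a description, since genes are not independent replicates and the 4 libraries share a cell line. The SD of the log2 folds over genes was 0.239 for MI-503 against DMSO and 0.172 for the combination against SD70. The 212 and 53 genes had a median of 510 and 916 reads and of 3966 and 3932 bases, against 1366 reads and 5062 bases over all genes; the part of depth and length in the shares was not tested.

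**Figure D5:**
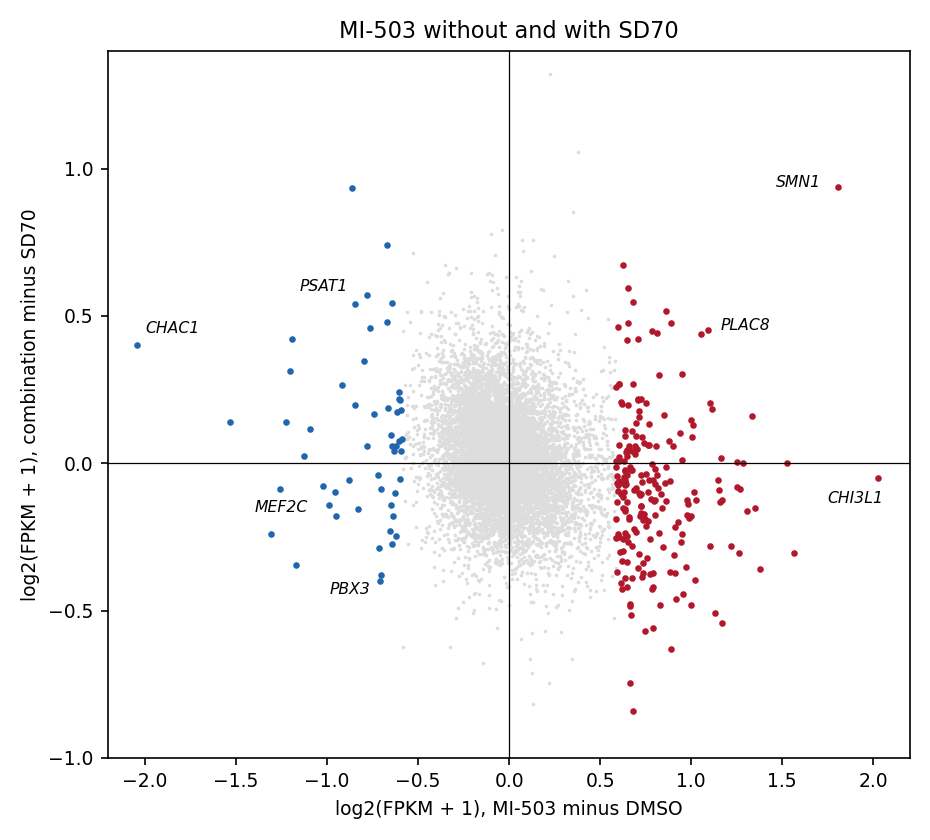
Log2 fold of the combination against SD70 (vertical axis) against log2 fold of MI-503 against DMSO (horizontal axis), both on log2(FPKM + 1), for 9709 protein-coding genes, with genes at least 1.5-fold higher with MI-503 against DMSO in red and at least 1.5-fold lower in blue. SMN1 and PLAC8 lie above 0 on both axes, PBX3 lies below 0 on both, and PSAT1 lies below 0 on the horizontal axis and above 0 on the vertical one.

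An additive fit of all 4 libraries (limma with a mean-variance trend) set the 2 libraries with MI-503 against the 2 without. It has 1 residual degree of freedom, and the departure from additivity serves as its error. No gene passed an adjusted p of 0.05 (0 of 9709, 0.0%), the smallest Benjamini-Hochberg adjusted p was 0.0552, and 245 genes had an unadjusted p under 0.05. With voom weights on the recovered reads 1 gene passed, SMN1, with an unadjusted p under 0.05 for 207. Both the 245 and the 207 are a smaller share of the 9709 genes than the 0.05 that would fall there if no gene differed. The genes with the smallest p, named after their values were seen, were SMN1 and PRTN3, followed by LYZ, MS4A4E, MS4A6A, MPO, CCZ1B, PLAC8, ALOX12, CCR2, RET and MS4A3. PRTN3, the proteinase 3 of azurophil granules, was at 3018 FPKM in DMSO, 3767 in MI-503, 1567 in SD70 and 2236 in the combination, a log2 difference of 0.42 ± 0.06 (SE) in limma with an adjusted p of 0.0552. In this gene MI-503 stood above its partner in both pairs, while SD70 stood below DMSO. CCZ1B was the 1 lower gene among the 12 (4.77, 2.85, 5.0 and 2.89 FPKM for DMSO, MI-503, SD70 and the combination), and it has a nearly identical copy, CCZ1, so its share of the reads is uncertain. PLAC8 was at 14.5, 32.1, 24.8 and 34.2 FPKM and the chemokine receptor CCR2 at 10.9, 23.8, 19.0 and 26.1 in that order. MS4A6A (3.60, 7.37, 6.79 and 10.1), MS4A4E (5.73, 9.38, 6.14 and 10.4) and ALOX12, a lipoxygenase (5.14, 8.84, 14.5 and 21.7), were higher with MI-503 in both pairs too. The fit favours genes with similar differences in both pairs, so this agreement comes with the choice of these genes and is no separate support.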

How the data were processed

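RNA of MOLM13 cells was sequenced after Trizol extraction with Illumina libraries, per the labels' protocols, in 4 libraries of 1 treatment each. Per the submitters' processing notes the tools were BWA and Bowtie and the build hg38, with no version and no role; counter, annotation and strand setting are not given in the sources used here. The deposited tables hold 1 value per Ensembl gene that is read as FPKM from the values themselves, since the header names no unit. Multiplied by the union-exon length of GENCODE release 29 (GRCh38), 100% of values gave whole reads within 0.01 of a read, and the library sizes behind these deposited values equal median-of-ratios sizes. For a 1 kb gene each read amounted to 0.0662 FPKM in DMSO and 0.0641 in MI-503. Symbols matched 58207 of 58735 identifiers.

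Folds are on log2(FPKM + 1), which understates low genes. Ratios carry no pseudocount and have exact 95% Clopper-Pearson intervals conditional on the reads of both libraries, which cover counting error only, as reads amplified by PCR and lacking molecular identifiers are not independent molecules. The limma fit (limma 3.58.1, R 4.3.3) had terms for SD70 and MI-503, 2-sided, adjusted over the 9709 genes. It was also run on simulated data, with an outcome not given here. Other steps used Python 3.11.15, pandas 2.3.3, numpy 2.4.6, scipy 1.17.1 and matplotlib 3.10.9. Named genes were the 12 highest and 12 lowest folds (at least 300 bases and 100 reads), the 10 highest and 10 lowest well-counted ratios with a fold under 2, all members of the drug target and menin target lists, up to 4 members with the largest folds of each other list, and those of the 20 most abundant genes more than 25% above or 20% below DMSO; genes added from the limma fit, and CD14, VCAN, CD163, MYLIP and other low or illustrative members, were chosen after their values were seen. The 44 gene lists, of which 7 are marker lists (2 symbols without a match), and the set of genes were chosen with earlier results of these data known. Alternatives covered the pseudocount, the minimum level, library scaling, the read minimum and the limma settings. Genes other than protein-coding were left out of the main counts. A few genes of the lists are not reported here by name, though the counts and medians include them.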

Additional observations from a re-analysis of the deposited data

Results flagged for a closer look

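PSAT1, the serine synthesis enzyme, stood on opposite sides in the pairs with and without SD70, each with an interval clear of a ratio of 1. The combination was at 1.5 times the SD70 level (95% counting interval 1.4 to 1.6), while MI-503 was at 0.577 of DMSO (0.545 to 0.611). Other named genes also stood on opposite sides in this way, among them POLR3G, EGR1, CHAC1, KCNN2 and PARP8. MEIS1 and PBX3 were lower in both pairs. With 1 library per group the difference between the pairs was not tested.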

How the results depend on the processing

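Genes at least 2-fold different numbered 45, and 111 with a pseudocount of 0.1 FPKM (89 higher, 22 lower), 4 with 5 FPKM, 20 at a mean of at least 5 FPKM (12 higher, 8 lower) and 278 over all genes of the table (153 higher, 125 lower). At 1.5-fold the 265 became 472 (345 and 127), 57 (39 and 18), 126 (93 and 33) and 812 (500 and 312) in the same order, so the share of higher genes went from 80.0% to 73.1%, 68.4%, 73.8% and 61.6%. Genes on the same side in the combination against SD70 were 90, and 173 of 472, 24 of 57, 50 of 126 and 334 of 812. With equal FPKM totals they were 79 of 252, and with equal read totals 84 of 272. The share of all genes above SD70 in the combination, 54.5% beside the lists, became 42.3% and 45.1%. Well-counted genes with an interval beyond 25% above or 20% below DMSO were 277, and 181 at 2000 reads (98 higher, 83 lower); with equal FPKM totals they were 299 (151 higher, 148 lower), so the share of higher genes went from 59.9% to 50.5%. The MI-503 term of limma called 0 genes, 1 with voom (SMN1, smallest adjusted p 0.000123), 2 at a mean of at least 5 FPKM (SMN1 and PRTN3, 0.00448), and 0 without trend (0.172), with pseudocounts of 0.1 (0.154) and 5 FPKM (0.0555) and without a filter (0.574).

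Scaling to equal FPKM or read totals moved the median of all genes by -0.021 and 0.01. Over 4 alternatives each, 0 of 184 values of 46 named genes changed sign, and 4 of 152 list medians did, each within 0.021 of 0: fatty acid synthesis (0.003 to -0.021), NRF2 targets (0.011 to -0.010) and stem and progenitor genes (0.017 to -0.005) with equal FPKM totals, and pro-apoptotic genes (-0.004 to 0.004) with equal read totals. A change of pseudocount cannot turn the sign of a gene's fold, and the scalings moved the median little. The named genes were chosen for their differences, so their unchanged signs are no support. The listed edgeR fit was not run, and limma-voom stands for a fit of the recovered reads. Leaving out a replicate was not possible, with 1 library per group. The limma fit has SD70 as its block, with 2 pairs and 1 residual degree of freedom, and no replicate number pairs libraries. Depth limits genes with few reads, such as S100A9 and HOXA7.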
